A study of Equus caballus with 9 samples.

Results

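Transcripts of 9 genes of the angiotensin, endothelin and bradykinin systems were followed in cultured equine cells from bone marrow, blood and fat. They are 4 ligand and enzyme genes, AGT, ACE, EDN1 and ECE1, and 5 receptor genes, AGTR1, EDNRA, EDNRB, BDKRB1 and BDKRB2, out of 16661 genes that the array annotation names singly. A row was taken for a gene when its only symbol was that of the gene, and of several rows the one of the highest mean over the 9 arrays would have been used. Each of the 9 genes had 1 row, so no measured level decided between rows. The set itself was chosen by membership in these systems with earlier results on the log2 intensities of these arrays known, among them those of BDKRB1, so the p-values below are not independent evidence that these systems differ.

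These are peptide systems that act on blood vessels and on tissue repair. Angiotensinogen (AGT) is cut by renin and then by angiotensin-converting enzyme (ACE) to angiotensin II, which acts mainly through the type 1 receptor (AGTR1). Endothelin-1 (EDN1), a strong vasoconstrictor, is released from its precursor by endothelin-converting enzyme (ECE1) and binds the type A and type B receptors (EDNRA, EDNRB). Bradykinin binds the B2 receptor (BDKRB2), which many cells carry at rest, while the B1 receptor (BDKRB1) is known to appear after injury or inflammation and binds kinins that have lost their last arginine. ACE also breaks down bradykinin. All of these receptors couple to G proteins of the Gq family and raise calcium in the cell.

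The 9 samples, 3 per group, are total RNA of plastic-adherent cells on Affymetrix arrays. The bone marrow cells (BM-MSC) came from 3 untreated horses and the adipose cells (AD-MSC) from tailhead fat of untreated horses, whose samples carry no horse label. The blood-derived cells (EA-ADSC) came from mononuclear cells of 3 other horses. These horses had received electroacupuncture, a treatment with current through acupuncture needles, and were bled 2 h later. No age or breed is used here. Culture lasted 96 h for all cells, with fetal bovine serum at 15%, and the attached cells were lysed for RNA (100 ng per amplification), so each sample is a mixed adherent population and not a clone. There was no blood sample from untreated horses among the arrays, so tissue, treatment and horse changed together between the blood-derived cells and each control group and cannot be told apart. The adipose samples carry sample numbers from a separate, higher block than the bone marrow and blood-derived samples. No run date is used here. A batch or horse difference between adipose cells and either other group therefore cannot be told apart from tissue. In such bulk samples fewer cells of a type and less RNA per cell cannot be told apart either.

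The deposited values are log2 intensities of 30559 probe sets, with array medians between 4.56 and 4.66 and a median of all values of 4.62. The lower quartile of all values was 3.35, and a fold against a group below 4.62 holds for the deposited values only, since no detection calls were used. The label of mesenchymal cells was checked against 12 stromal markers. Their summed log2 intensity was 110.6 to 112.5 in bone marrow, 109.7 to 114.0 in blood-derived and 99.8 to 102.2 in adipose cells, and no marker lay below 4.62 on all arrays of a group. Of the 12, 7 were higher and 1 was lower in blood-derived than in adipose cells, 1 was higher and 7 were lower in adipose than in bone marrow cells, and 2 were higher in blood-derived than in bone marrow cells. Over all probe sets these shares were, in the same order, 3.49% and 3.43%, 2.83% and 3.25%, and 0.35%. The part of these marker differences in the results below was not tested. Group values with ± are the mean and SD of log2 intensity (n = 3), and 1 probe set's level is not set against another's. Adjusted p-values are from limma with Benjamini-Hochberg adjustment over all probe sets and are called at 0.05. The 95% intervals of differences hold for 1 gene at a time.

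The 3 cell populations differed in which of these transcripts were high. Adipose cells had far more AGTR1 than both other groups and far less EDN1. Blood-derived cells had far more BDKRB1 than both controls. Bone marrow cells shared high EDN1 with the blood-derived cells and had the least ECE1. By limma's moderated F test over the 3 groups 4 of the 9 genes differed, AGTR1, EDN1, ECE1 and BDKRB1, beside 7.48% of all probe sets.

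**Figure D1:**
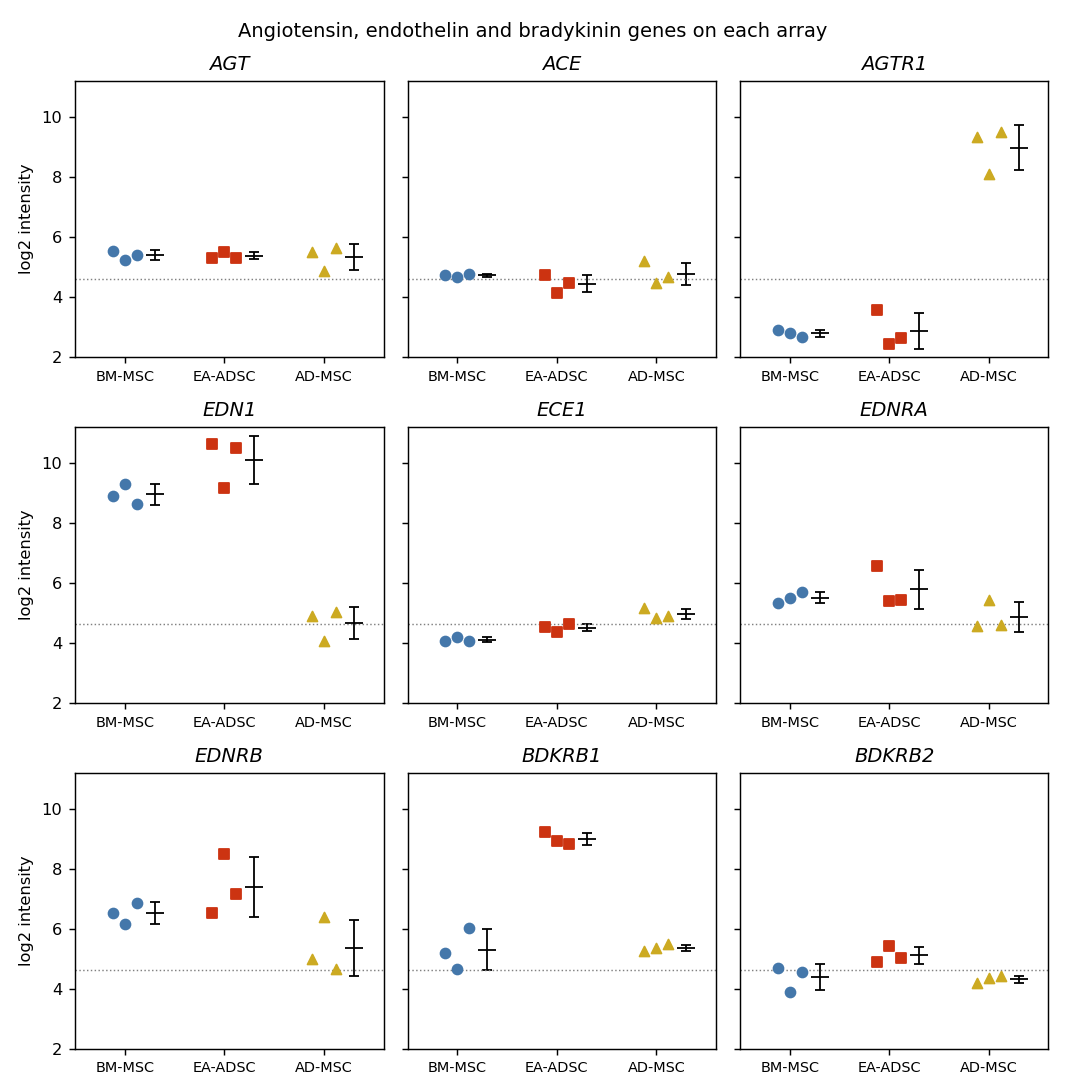
Log2 intensity (y axis) of each of the 9 genes on each array, with 1 panel per gene and the groups BM-MSC (circles), EA-ADSC (squares) and AD-MSC (triangles) on the x axis. Points are replicates 1 to 3 from left to right, black bars are mean ± SD (n = 3), and the dotted line is the median of all values, 4.62. AGTR1 is high in the 3 adipose arrays, EDN1 is low there, and BDKRB1 is high in the 3 blood-derived arrays.

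The angiotensin genes were led by AGTR1 (probe set 14998436), the receptor that mediates most known actions of angiotensin II. It was at 9.33, 8.11 and 9.51 in adipose replicates 1, 2 and 3. In bone marrow cells it was at 2.91, 2.81 and 2.67, and in blood-derived cells at 3.56, 2.43 and 2.65. All adipose arrays thus lay far above all others, and 5 of the 6 other arrays lay below the lower quartile of all values. The adipose mean of 8.98 ± 0.76 stood against 2.80 ± 0.12 in bone marrow cells, a log2 difference of 6.18 (SE 0.40, 72.8-fold, adjusted p = 1.9e-04 by limma). Against the blood-derived mean of 2.88 ± 0.60 the difference was -6.10 on the log2 scale in the blood-derived cells (SE 0.40, 68.7-fold lower, adjusted p = 1.6e-04). The lowest of the adipose values, that of replicate 2, was still 8.11. Blood-derived and bone marrow cells overlapped, with a difference of 0.08 (95% interval -0.83 to 0.99, adjusted p = 0.978), so a difference of up to about 1 unit either way is within the error.

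AGT (14934985), which encodes the precursor of all angiotensins, differed little between groups. It was at 5.55, 5.23 and 5.42 in bone marrow, at 5.31, 5.52 and 5.30 in blood-derived and at 5.50, 4.86 and 5.65 in adipose cells. The groups overlapped in every pair, and the means were 5.40 ± 0.16, 5.38 ± 0.12 and 5.34 ± 0.42. The largest of its 3 differences in size was -0.06, for adipose minus bone marrow cells (95% interval -0.54 to 0.41, adjusted p = 0.903). Leaving out single arrays turned the sign of these small differences.

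ACE (14965097), the membrane peptidase that makes angiotensin II and inactivates bradykinin, lay close to the median of all values throughout. Bone marrow arrays were at 4.73, 4.68 and 4.78, blood-derived arrays at 4.73, 4.15 and 4.47, and adipose arrays at 5.20, 4.47 and 4.68. The groups overlapped in every pair. Blood-derived cells had the lowest mean, 4.45 ± 0.29, with a difference of -0.33 from adipose cells (95% interval -0.81 to 0.15, adjusted p = 0.422) and of -0.28 from bone marrow cells (95% interval -0.76 to 0.21, adjusted p = 0.734). Of the angiotensin genes here, then, the receptor passed the test and neither the ligand nor the enzyme did.

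Among the endothelin genes EDN1 (15026820), the ligand, was lowest in adipose cells, where AGTR1 was highest. It was at 10.63, 9.17 and 10.49 in blood-derived replicates 1, 2 and 3 and at 8.90, 9.31 and 8.63 in bone marrow cells. In adipose cells it was at 4.89, 4.06 and 5.03. Every adipose array lay more than 3 log2 units below every other array. The mean of 10.10 ± 0.81 in blood-derived cells was 43.3-fold above the adipose mean of 4.66 ± 0.53 (log2 difference 5.44, SE 0.42, adjusted p = 3.0e-04). Adipose cells were 19.5-fold below bone marrow cells, which were at 8.95 ± 0.34 (log2 difference -4.29, SE 0.42, adjusted p = 9.8e-04).

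The EDN1 values of blood-derived and bone marrow cells overlapped, because blood-derived replicate 2 lay below bone marrow replicate 2. Their difference of 1.15 (95% interval 0.20 to 2.10) did not pass the test over all probe sets (adjusted p = 0.317). The order of EDN1 was therefore blood-derived, bone marrow and adipose by mean, with the first pair overlapping and not called. EDN1 is known as a product of endothelial cells, so 10 endothelial markers were looked at beside it. Their summed log2 intensity was 38.6 to 39.5 in bone marrow, 39.9 to 41.3 in blood-derived and 38.7 to 39.3 in adipose cells, and 9, 6 and 8 of them lay below 4.62 on all arrays of these groups. None of the 10 passed limma's test in any comparison. At an unadjusted p under 0.05 there were 1, 2 and 2 of them, beside 11.7%, 21.2% and 21.1% of all probe sets. These are for blood-derived against bone marrow, blood-derived against adipose, and adipose against bone marrow cells. The marker of the first comparison was ERG, at 5.27 ± 0.75 in blood-derived against 4.32 ± 0.12 in bone marrow cells. Its arrays did not overlap there, beside 18.4% of all probe sets. The others were EGFL7, lowest in adipose cells, and EMCN, highest there. EMCN lay between 1.68 and 2.27 on all 9 arrays, below the lower quartile of all values, 3.35. The part of endothelial cells in the EDN1 differences was not tested.

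ECE1 (15018013), the protease that releases mature endothelin from its precursor, was lowest in bone marrow, intermediate in blood-derived and highest in adipose cells, where EDN1, the gene of its substrate, was lowest. Its values were 4.07, 4.20 and 4.05 in bone marrow, 4.52, 4.38 and 4.63 in blood-derived and 5.15, 4.84 and 4.90 in adipose cells. No 2 groups overlapped, though the whole range was narrow and bone marrow and all but 1 blood-derived array lay below 4.62. Adipose cells, at 4.97 ± 0.17, were 1.81-fold above bone marrow cells at 4.11 ± 0.08 (log2 difference 0.86, SE 0.13, adjusted p = 0.00757). The blood-derived mean of 4.51 ± 0.12 did not pass against bone marrow (0.41, 95% interval 0.11 to 0.70, adjusted p = 0.24) or adipose cells (-0.45, 95% interval -0.75 to -0.16, adjusted p = 0.0788). The difference from adipose cells passed when 1 probe set per gene was tested (adjusted p = 0.042). ECE1 lost its call in the F test without bone marrow replicate 1 (adjusted p = 0.0522) and kept its call between adipose and bone marrow cells there.

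EDNRA (15025681), the receptor through which endothelin-1 contracts smooth muscle, was at 5.34, 5.49 and 5.70 in bone marrow cells. In blood-derived cells it was at 6.55, 5.40 and 5.43, and in adipose cells at 4.57, 5.44 and 4.61. Blood-derived replicate 1 was the highest array, and adipose replicate 2 lay among the arrays of the other groups. The means, 5.51 ± 0.18, 5.79 ± 0.65 and 4.87 ± 0.49 in that order, did not differ past the threshold. Blood-derived minus adipose cells gave 0.92 (95% interval 0.13 to 1.71, adjusted p = 0.167), adipose minus bone marrow cells -0.64 (95% interval -1.43 to 0.15, adjusted p = 0.339) and blood-derived minus bone marrow cells 0.28 (95% interval -0.51 to 1.07, adjusted p = 0.866). The last value was -0.10 without blood-derived replicate 1.

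EDNRB (15005534), which in vessels is known to clear endothelin and to release nitric oxide, had wide spreads in blood-derived and adipose cells. Its values were 6.53, 6.15 and 6.87 in bone marrow, 6.53, 8.50 and 7.15 in blood-derived and 4.98, 6.40 and 4.66 in adipose cells. Blood-derived replicate 2 had the highest EDNRB of all arrays, and adipose replicate 2 was above the other adipose arrays in both EDNRA and EDNRB. The blood-derived mean of 7.39 ± 1.01 was 2.05 log2 units above the adipose mean of 5.35 ± 0.93 (95% interval 0.74 to 3.35, adjusted p = 0.0735), and the closest arrays of these groups were 6.53 and 6.40. This difference passed without adipose replicate 2 (2.58, adjusted p = 0.0329) and with 1 probe set per gene (adjusted p = 0.043). Bone marrow cells at 6.52 ± 0.36 lay between and overlapped both, with 0.88 for blood-derived minus bone marrow cells (95% interval -0.43 to 2.19, adjusted p = 0.657) and -1.17 for adipose minus bone marrow cells (95% interval -2.47 to 0.14, adjusted p = 0.29).

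Of the bradykinin receptors BDKRB1 (15045827), the inducible B1 receptor, marked the blood-derived cells. It was at 9.21, 8.91 and 8.83 in blood-derived replicates 1, 2 and 3. In bone marrow cells it was at 5.20, 4.66 and 6.04, and in adipose cells at 5.27, 5.35 and 5.48. The 3 blood-derived arrays lay close together and well above the other 6, of which bone marrow replicate 3 was the highest. The blood-derived mean of 8.98 ± 0.20 was 12.3-fold above the adipose mean of 5.36 ± 0.11 (log2 difference 3.62, SE 0.31, adjusted p = 5.0e-04). Against bone marrow cells at 5.30 ± 0.69 the log2 difference was 3.69 (SE 0.31, adjusted p = 0.00156). The control groups overlapped, with 0.07 for adipose minus bone marrow cells (95% interval -0.63 to 0.76, adjusted p = 0.934).

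BDKRB2 (15045825), the constitutive B2 receptor, had its highest values on the same 3 arrays, at a much smaller distance. Blood-derived cells were at 4.90, 5.41 and 5.02, bone marrow cells at 4.69, 3.90 and 4.56 and adipose cells at 4.18, 4.35 and 4.41. The blood-derived arrays did not overlap with either control. The mean of 5.11 ± 0.27 was 0.80 above adipose cells at 4.31 ± 0.12 (95% interval 0.28 to 1.32, adjusted p = 0.076) and 0.73 above bone marrow cells at 4.38 ± 0.43 (95% interval 0.21 to 1.24, adjusted p = 0.228), and neither passed. The difference from adipose cells passed without bone marrow replicate 2 (0.80, adjusted p = 0.0371), which is in neither group but adds to the shared spread, and with 1 probe set per gene (adjusted p = 0.0433). The control groups differed by -0.07 for adipose minus bone marrow cells (95% interval -0.59 to 0.44, adjusted p = 0.895).

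Set side by side, the comparison of blood-derived with bone marrow cells called 1 of the 9 genes, BDKRB1, which was higher, beside 0.815% of all probe sets called in either direction (0.35% higher, 0.465% lower). Blood-derived against adipose cells called 3, with EDN1 and BDKRB1 higher and AGTR1 lower, beside 6.92% (3.49% higher, 3.43% lower). Adipose against bone marrow cells called 3 as well, with AGTR1 and ECE1 higher and EDN1 lower, beside 6.08% (2.83% higher, 3.25% lower). The shares are of all probe sets, of which 13427 had no gene in the annotation used. Tested with 1 probe set per gene, 2.93%, 12.8% and 12% of 16661 genes were called in these comparisons. The 3 and 3 arrays did not overlap for 3, 6 and 3 of the 9 genes in these comparisons, beside 18.4%, 23.5% and 25.6% of all probe sets. At an unadjusted p under 0.05 there were 4, 7 and 3 genes, beside 11.7%, 21.2% and 21.1% of all probe sets. The median log2 difference of the 9 genes was 0.41, 0.80 and -0.06, against 0.01, -0.02 and 0.04 over all probe sets. The comparisons share arrays, so these counts are not separate pieces of evidence.

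**Figure D2:**
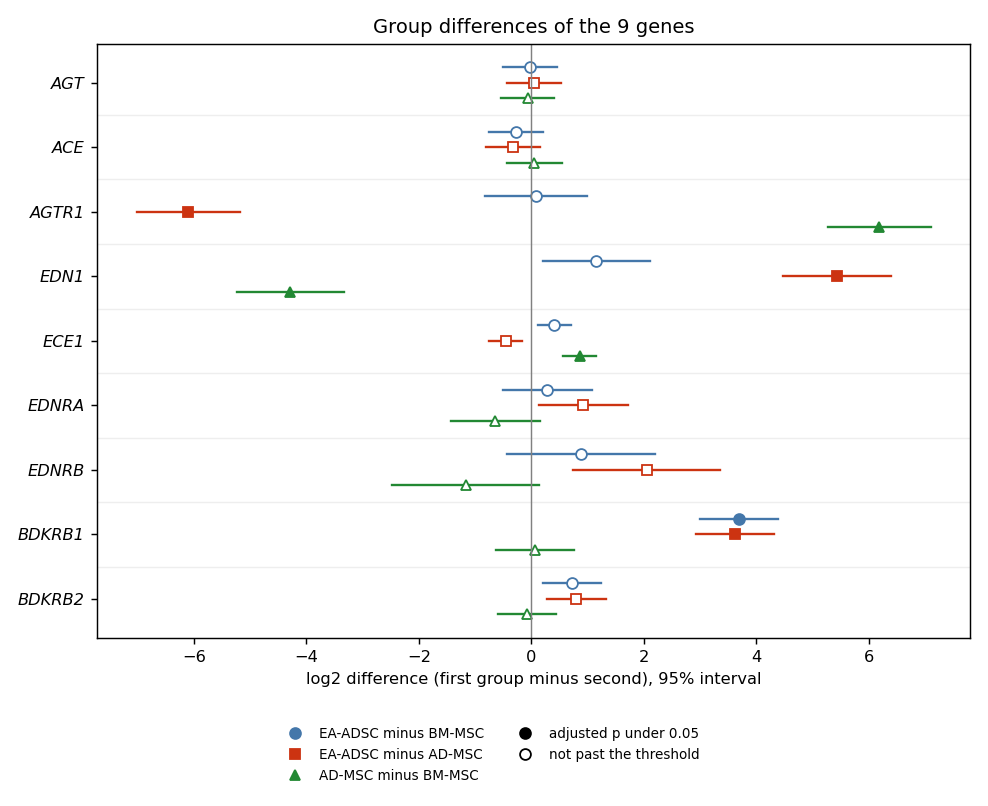
Log2 differences between groups (x axis, first group minus second) for the 9 genes (y axis), with limma's 95% intervals as lines. Circles are EA-ADSC minus BM-MSC, squares EA-ADSC minus AD-MSC and triangles AD-MSC minus BM-MSC, filled where the adjusted p was under 0.05. AGTR1 lies near 6 log2 units from 0 in both comparisons with adipose cells, in opposite directions as adipose cells are the second or the first group, and BDKRB1 lies between 3 and 4 in both comparisons that hold the blood-derived cells.

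Other genes of the same systems were looked at through lists, which were written with earlier results of these arrays known. Their counts stand beside the shares of all probe sets called in either direction. These were 0.815% for blood-derived against bone marrow, 6.92% for blood-derived against adipose and 6.08% for adipose against bone marrow cells. Counts of the lists at an unadjusted p under 0.05 stand beside 11.7%, 21.2% and 21.1% of all probe sets, in the same order. Of 16 further genes of the renin-angiotensin system 11 were measured. None passed between blood-derived and bone marrow cells (0 at an unadjusted p under 0.05) or between adipose and bone marrow cells (3 at an unadjusted p under 0.05), and 1 was lower in blood-derived than in adipose cells. The medians were -0.16, 0.02 and -0.03 in these comparisons. The gene called was LNPEP, an aminopeptidase that binds angiotensin IV, at 6.30 ± 0.17 in blood-derived, 7.12 ± 0.25 in adipose and 6.49 ± 0.18 in bone marrow cells (log2 difference -0.82, SE 0.17, 1.77-fold, adjusted p = 0.0244). It lost this call without blood-derived replicate 1 (adjusted p = 0.0642) or 2 (0.0819) or adipose replicate 1 (0.0509), and when the 2 groups were fitted alone (0.0688). The type 2 angiotensin receptor gene AGTR2, singled out after its values were seen, lay between 1.62 and 2.63 on all 9 arrays, below the lower quartile of all values.

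All 5 further endothelin genes were measured, namely EDN2, EDN3, ECE2, ECEL1 and KEL. None passed limma's test in any comparison, with 1, 1 and 0 at an unadjusted p under 0.05 for blood-derived against bone marrow, blood-derived against adipose, and adipose against bone marrow cells. The largest difference in size in each comparison was 0.33, 0.32 and 0.30, and the medians were 0.11, 0.12 and 0.04. KEL, a blood-group protein that can cleave big endothelin-3, had the smallest F-test p, at 4.65 ± 0.20 in blood-derived, 4.32 ± 0.08 in bone marrow and 4.33 ± 0.06 in adipose cells (adjusted p = 0.228).

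Of 12 further genes of the kinin-kallikrein system 11 were measured. None passed between blood-derived and bone marrow cells (0 at an unadjusted p under 0.05) or between adipose and bone marrow cells (3), and between blood-derived and adipose cells 1 was higher and 1 lower. The medians were -0.10, -0.13 and -0.02. CPM, a membrane carboxypeptidase that removes the last arginine of kinins and so makes ligands of the B1 receptor, was lower in blood-derived cells at 3.42 ± 0.40 against 5.18 ± 0.93 (log2 difference -1.76, SE 0.43, adjusted p = 0.0458). Bone marrow cells were at 3.82 ± 0.29. Its call held in 1 of the 9 fits without 1 array, the one without adipose replicate 3 (-2.28, adjusted p = 0.00703), while the other 8 gave adjusted p from 0.0705 to 0.138. CPM was also higher in adipose than in bone marrow cells when adipose replicate 3 was left out (1.88, adjusted p = 0.0154). CPD, a carboxypeptidase of the secretory pathway, was higher in blood-derived than in adipose cells at 5.45 ± 0.27 against 4.81 ± 0.09 (log2 difference 0.63, SE 0.15, adjusted p = 0.039). It kept this call without blood-derived replicate 3 (0.78, adjusted p = 0.0186) and lost it in the other 8 such fits, with adjusted p from 0.0619 to 0.114.

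Natriuretic peptides and adrenomedullin oppose the vasoconstrictor peptides, and all 12 genes listed for them were measured. None passed between blood-derived and bone marrow cells (2 at an unadjusted p under 0.05). Between blood-derived and adipose cells 1 was higher and 1 lower, and in adipose against bone marrow cells 1 was lower. The medians were 0.11, 0.12 and 0.07. NPR3, the receptor that clears natriuretic peptides, was at 7.68 ± 0.55 in bone marrow, 8.15 ± 1.25 in blood-derived and 4.23 ± 0.61 in adipose cells. No adipose array, with values from 3.86 to 4.94, reached the lowest of the others, 7.13. Blood-derived cells were 15.1-fold above adipose cells (log2 difference 3.91, SE 0.60, adjusted p = 0.00733, and 3.19 without blood-derived replicate 1). Adipose cells were 10.9-fold below bone marrow cells (adjusted p = 0.014), a call lost without bone marrow replicate 1 (0.0543) or 3 (0.0547) or adipose replicate 3 (0.0536). ADM, the vasodilator adrenomedullin, was highest in adipose cells at 9.27 ± 0.44, against 6.03 ± 1.07 in blood-derived and 7.92 ± 0.49 in bone marrow cells. Its difference between blood-derived and adipose cells was -3.23 (SE 0.51, 9.41-fold lower, adjusted p = 0.00827), and -3.85 without blood-derived replicate 1, which at 7.27 stood above the other blood-derived arrays. Without that array ADM was also called between blood-derived and bone marrow cells (-2.50, adjusted p = 0.024) and between adipose and bone marrow cells (1.35, adjusted p = 0.0449).

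Of the 21 genes of G protein coupling and receptor desensitization, all measured, 1 was higher in blood-derived than in bone marrow cells. Between blood-derived and adipose cells 1 was higher and 1 lower, and likewise 1 was higher and 1 lower between adipose and bone marrow cells. The medians were -0.03, -0.04 and -0.02. GRK5, a kinase that desensitizes G protein-coupled receptors, was at 4.14 ± 0.21 in bone marrow, 6.09 ± 0.32 in blood-derived and 5.40 ± 0.19 in adipose cells, with no overlap between any 2 groups. It was 3.85-fold higher in blood-derived than in bone marrow cells (adjusted p = 0.00376) and 2.39-fold higher in adipose than in bone marrow cells (adjusted p = 0.0083). The difference between blood-derived and adipose cells, 0.69, did not pass (adjusted p = 0.0752), and passed without blood-derived replicate 1 (0.86, adjusted p = 0.0389). ITPR1, a calcium release channel downstream of Gq, fell in the order bone marrow, blood-derived and adipose at 6.73 ± 0.06, 5.85 ± 0.47 and 4.70 ± 0.15. Adipose cells were 4.08-fold below bone marrow cells (adjusted p = 0.0016), and blood-derived cells 2.22-fold above adipose cells (adjusted p = 0.0176), a call lost without blood-derived replicate 2 (0.0612) or adipose replicate 3 (0.0601). GNA13, a G protein alpha subunit outside the Gq family, was lower in blood-derived than in adipose cells, at 6.08 ± 0.28 against 6.78 ± 0.20 (log2 difference -0.70, adjusted p = 0.0432). It lost this call in all 9 fits without 1 array (adjusted p from 0.0532 to 0.0954).

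**Figure D3:**
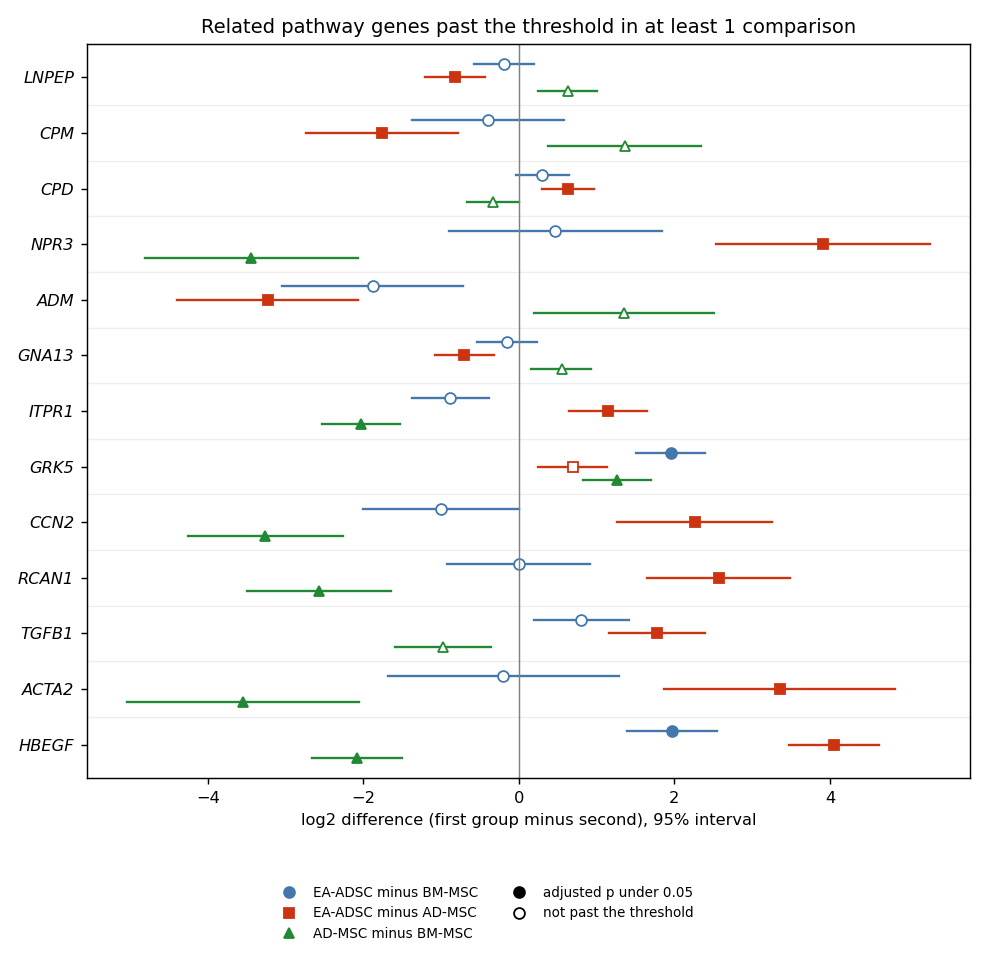
Log2 differences between groups (x axis, first group minus second) for the related pathway genes that passed limma's test in at least 1 comparison (y axis), with 95% intervals as lines. Circles are EA-ADSC minus BM-MSC, squares EA-ADSC minus AD-MSC and triangles AD-MSC minus BM-MSC, filled where the adjusted p was under 0.05. Between blood-derived and bone marrow cells GRK5 and HBEGF are the filled points, and NPR3, ITPR1, CCN2, RCAN1, ACTA2 and HBEGF are filled in both comparisons with adipose cells, in each case with the lowest level in adipose cells. CPD and TGFB1 were also lowest, and LNPEP, CPM, ADM and GNA13 highest, in adipose cells, each filled in 1 of these comparisons.

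Genes known in other cells to be induced by these receptors made up a list of 11, of which 10 were measured. In blood-derived against bone marrow cells 1 was higher and none lower, beside 0.35% and 0.465% of all probe sets. Against adipose cells 5 were higher in blood-derived cells and none lower, beside 3.49% and 3.43%. In adipose against bone marrow cells 4 were lower and none higher, beside 3.25% and 2.83%. At an unadjusted p under 0.05 there were 4, 6 and 5, beside 11.7%, 21.2% and 21.1%. The first 4 were HBEGF and TGFB1, which were higher, and IL6 and EGR1, which were lower (-3.04 and -1.40). Of these only HBEGF was called. The medians were -0.10, 1.70 and -1.50, beside 0.01, -0.02 and 0.04 over all probe sets. HBEGF, a ligand of the EGF receptor that is shed after receptor activation, was at 8.02 ± 0.34 in blood-derived, 6.05 ± 0.41 in bone marrow and 3.97 ± 0.27 in adipose cells. Blood-derived cells were 16.6-fold above adipose cells (adjusted p = 1.5e-04) and 3.92-fold above bone marrow cells (adjusted p = 0.0138). The second call was lost when any of these 4 arrays was left out: bone marrow replicate 1 (0.056), bone marrow replicate 2 (0.0654), blood-derived replicate 2 (0.0587) and blood-derived replicate 3 (0.0587).

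CCN2, a matricellular protein formerly called CTGF, was at 10.18 ± 0.09 in bone marrow, 9.18 ± 0.49 in blood-derived and 6.92 ± 0.96 in adipose cells. Adipose cells were 9.57-fold below bone marrow cells (adjusted p = 0.00451). Blood-derived cells were 4.79-fold above adipose cells (adjusted p = 0.0194), a call lost without blood-derived replicate 1 (0.0638) or 3 (0.0673). RCAN1, an inhibitor of calcineurin, was at 8.76 ± 0.60, 8.76 ± 0.70 and 6.19 ± 0.35 in bone marrow, blood-derived and adipose cells, 5.94-fold lower in adipose than in bone marrow cells (adjusted p = 0.00884) and 5.93-fold higher in blood-derived than in adipose cells (adjusted p = 0.00813). TGFB1, a cytokine that promotes matrix formation, was higher in blood-derived than in adipose cells at 7.61 ± 0.45 against 5.83 ± 0.40 (3.42-fold, adjusted p = 0.00705). Bone marrow cells were at 6.80 ± 0.21, and adipose cells were called lower than these without adipose replicate 1 (-1.19, adjusted p = 0.0432).

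The fifth of these genes, the smooth muscle actin ACTA2, is also a smooth muscle marker. It was at 13.04 ± 0.07 in bone marrow, 12.84 ± 0.11 in blood-derived and 9.49 ± 1.62 in adipose cells, whose arrays ran from 7.74 to 10.94. The log2 difference of blood-derived minus adipose cells was 3.36 (adjusted p = 0.0194), and it was 4.08 without adipose replicate 1 and 2.48 without adipose replicate 3. It lost its call without blood-derived replicate 1 (0.0609), 2 (0.0584) or 3 (0.0613). Adipose minus bone marrow cells gave -3.55 (adjusted p = 0.0172), with -4.28 without adipose replicate 1 and -2.68 without adipose replicate 3. That call was lost without bone marrow replicate 1 (0.0624), 2 (0.0598) or 3 (0.0602).

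Levels of some markers of other cell types moved along with some of these genes. Of 10 pericyte and smooth muscle markers, 4 were higher in blood-derived than in adipose cells. In adipose against bone marrow cells 3 were lower. Over all probe sets these shares were 3.49% and 3.25%. In both comparisons EDN1 was called in the same direction as these markers, and AGTR1 in the opposite direction. The markers called were ACTA2, TAGLN and CNN1 in both comparisons and DES in the first. MYH11, PDGFRB, RGS5, CSPG4, MCAM and NOTCH3 were called in no comparison. Their summed log2 intensity was 66.7 to 69.5 in bone marrow, 69.1 to 73.3 in blood-derived and 51.6 to 56.5 in adipose cells. Between blood-derived and bone marrow cells 1 of the 10 was higher, the intermediate filament gene DES, at 9.03 ± 0.86 against 5.38 ± 0.31 (adjusted p = 0.0048). DES was at 4.89 ± 0.10 in adipose cells, so its 3 highest arrays were the blood-derived ones, as for BDKRB1. For blood-derived minus bone marrow cells ACTA2, TAGLN and CNN1 gave -0.20, -0.20 and -0.39 and were not called. Of 10 leukocyte and macrophage markers 1 was lower in each comparison and none higher. It was FCER1G in blood-derived against bone marrow (adjusted p = 0.0206 by limma) and against adipose cells (0.0193). In adipose against bone marrow cells it was TYROBP (0.0132), and FCER1G was not called there (0.338). Lower probe sets were 0.465% for blood-derived against bone marrow, 3.43% for blood-derived against adipose and 3.25% for adipose against bone marrow cells. The sums of these leukocyte markers were 48.6 to 56.7 in bone marrow, 40.8 to 42.8 in blood-derived and 44.1 to 48.9 in adipose cells. On all arrays of bone marrow, blood-derived and adipose cells, 1 smooth muscle marker and 4, 8 and 7 leukocyte markers lay below 4.62. The part of these cell types in the differences of the 9 genes was not tested.

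For the 4 genes that passed the F test, the genes with the most similar profile were sought by Pearson correlation over the 9 arrays among all singly named genes. With 3 arrays in each of 3 groups these correlations mostly follow the group means, and they are given as descriptions. AGTR1 was followed most closely by UAP1, an enzyme of UDP-N-acetylglucosamine synthesis (r = 0.9985), MCTP1, a calcium-binding membrane protein (r = 0.9974), and VEGFD, a growth factor for lymphatic vessels (r = 0.9951). UAP1 was at 10.23 ± 0.21 in adipose cells against 8.44 ± 0.09 in bone marrow and 8.44 ± 0.17 in blood-derived cells. VEGFD was at 10.20 ± 0.70 in adipose cells, against 3.46 to 3.97 in bone marrow and 3.60 to 4.32 in blood-derived cells. MCTP1 was at 6.67 ± 0.39 in adipose cells, against 3.92 ± 0.05 and 3.90 ± 0.19.

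EDN1 was most like FBXW2, a ubiquitin ligase subunit (r = 0.9921), LOXL2, an enzyme that crosslinks collagen (r = 0.9821), and VCAN, the matrix proteoglycan versican (r = 0.9809). FBXW2 spanned a small range, from 8.77 ± 0.02 in adipose to 9.53 ± 0.12 in blood-derived cells, while VCAN ran from 7.78 ± 0.34 to 11.35 ± 0.15 and LOXL2 from 5.25 ± 0.40 to 8.55 ± 0.19. BDKRB1 was most like FBLN2, a basement membrane protein (r = 0.9807), the growth factor gene FGF5 (r = 0.9595) and PDLIM3, an actin-associated protein (r = 0.9562). FBLN2 was at 8.47 ± 0.09 in blood-derived cells against 6.44 ± 0.13 in bone marrow and 6.74 ± 0.10 in adipose cells. ECE1 was most like IDH1, an isocitrate dehydrogenase (r = 0.9714), CLPSL1, a colipase-like gene (r = 0.9693), and ARHGAP18 (r = 0.9672), which ran from 4.89 ± 0.34 in bone marrow over 6.25 ± 0.30 in blood-derived to 8.03 ± 0.17 in adipose cells.

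**Figure D4:**
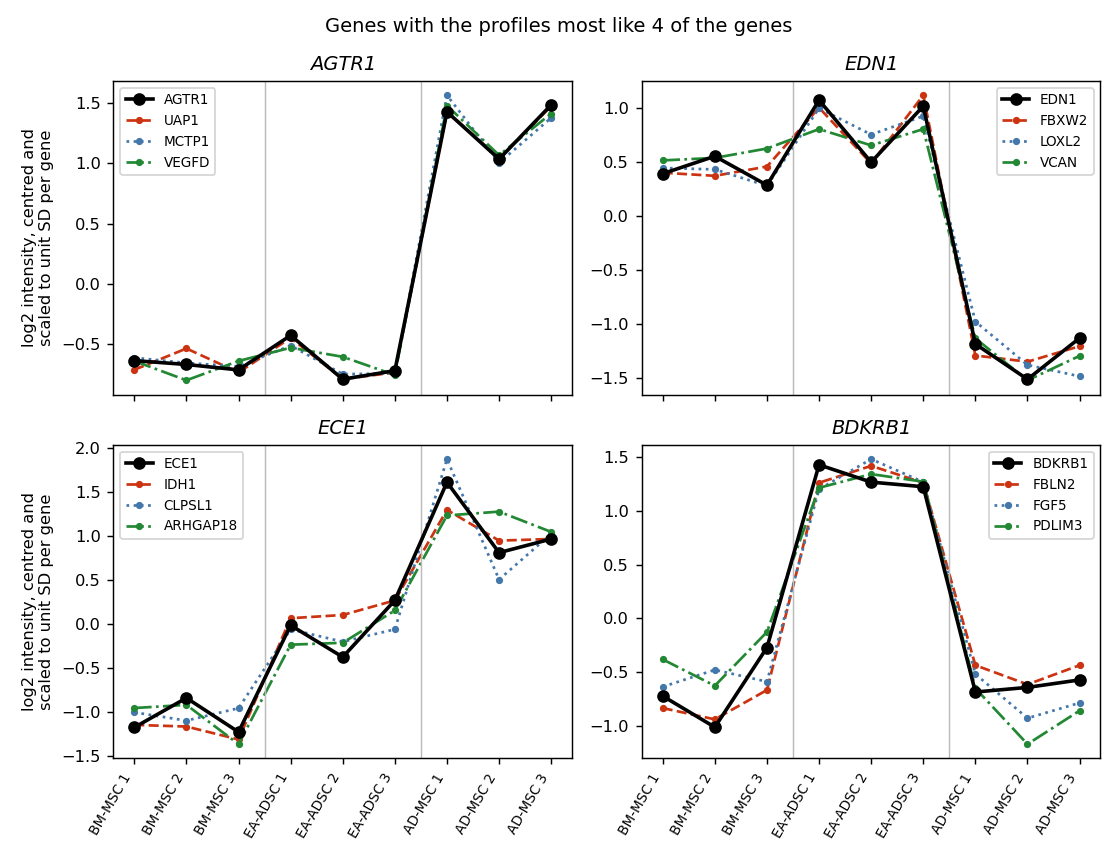
Profiles over the 9 arrays (x axis, replicates 1 to 3 of each group, parted by vertical lines) of AGTR1, EDN1, ECE1 and BDKRB1 (thick black lines) and of the 3 genes of the highest Pearson correlation with each (thin lines). The y axis is log2 intensity after each gene was centred on its mean and divided by its SD, so sizes of change cannot be compared between genes. The AGTR1 panel steps up in adipose cells, the EDN1 panel steps down there, ECE1 rises in 2 steps and BDKRB1 is high in blood-derived cells.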

How the data were processed

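The deposited table holds normalized log2 intensities of the 9 arrays, used as deposited. Tools listed in the submitters' processing notes are Transcriptome Analysis Console 3, Expression Console (Affymetrix) and Partek 6.16.0419, and how values were summarized and normalized is not given. Rows were named from the platform annotation. One model with a mean per group was fitted over 9 arrays and 30559 probe sets with limma 3.58.1 (R 4.3.3, lmFit and eBayes), leaving 6 residual degrees of freedom. Tests were two-sided. The procedure was tested on simulated data. The genes, lists, tests and alternatives were chosen with earlier results of these data known. Beside the 9 genes, the text names list genes past the threshold in at least 1 comparison (or the one with the smallest F-test p where none passed) and, per gene passing the F test, the 3 most correlated genes. Where nothing says that replicates are separate animals, as for the adipose samples, p-values measure the spread between samples. Precision is limited by having 3 arrays in a group, with a median standard error of 0.19 for a log2 difference. A value shared to all digits by 2 or more arrays occurred in 37.3% of probe sets, which can narrow a group's spread. It occurred in 1 of the 9 genes, EDNRB, between bone marrow replicate 1 and blood-derived replicate 1, so not within a group. Among the pathway genes called, CPD was at 5.15 on all bone marrow arrays (SD 0.00), which lowers the shared spread behind its test.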

Additional observations from a re-analysis of the deposited data

How the results depend on the processing

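Calls of AGTR1, EDN1 and BDKRB1 kept their direction and their side of the threshold under every alternative run. Blood-derived against adipose cells called 6 of the 9 genes in place of 3 when dim probe sets were left out (16358 probe sets tested), with 1 probe set per gene and with probe sets averaged by gene, which added ECE1, EDNRB and BDKRB2. These fits adjust over fewer rows, and they called 15.5%, 12.8% and 12.8% of all rows tested, against 6.92% before. Without 1 array at a time this comparison called 3 to 4 genes, and the others kept 1 and 3. The 2-fold criterion removed ECE1 from adipose against bone marrow cells (log2 difference 0.86), leaving 2. Between blood-derived and adipose cells, quantile normalization removed the call of CPM (adjusted p = 0.0505) and median centring that of GNA13 (0.0578). Array weights removed those of CPM (0.0655), CPD (0.0741) and GNA13 (0.0617). Fitting these 2 groups alone removed those of LNPEP, CPM, CPD, GNA13, ITPR1, CCN2 and ACTA2 (adjusted p from 0.0687 to 0.122). The calls of LNPEP, CPD and GNA13 between these groups were also lost under the 2-fold criterion. Fitting adipose and bone marrow cells alone removed that of ACTA2 (0.061). Array weights added ADM (adjusted p = 0.0487) and ITPR1 (0.0423) between blood-derived and bone marrow cells. Fits over fewer rows added GRK5 between blood-derived and adipose cells, and LNPEP and TGFB1 between adipose and bone marrow cells. When replicate numbers entered as a block, the counts among the 9 genes were 1, 3 and 3, and 4 in the F test, as without it, and among the pathway genes CPD (adjusted p = 0.067), GNA13 (0.0597) and CCN2 (0.0526) lost their calls between blood-derived and adipose cells. The labels name different horses for bone marrow and blood and none for fat, and residual correlations ran from -0.0245 to 0.123 between arrays of the same number and from -0.116 to 0.0397 between the others, so the numbers were not taken as pairs.

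Signs turned only in differences that were not called. With array weights AGT gave -0.02 for blood-derived minus adipose and 0.00 for adipose minus bone marrow cells, and AGTR1 -0.04 for blood-derived minus bone marrow cells. Without 1 array at a time AGT ran from -0.11 to 0.06 (blood-derived minus bone marrow), -0.20 to 0.20 (blood-derived minus adipose) and -0.22 to 0.18 (adipose minus bone marrow). Blood-derived minus bone marrow cells ran from -0.26 to 0.31 for AGTR1, -0.10 to 0.48 for EDNRA, -0.25 to 0.86 for NPR3, -0.24 to 0.01 for GNA13 and -0.40 to 0.33 for RCAN1. Adipose minus bone marrow cells ran from -0.15 to 0.21 for ACE, -0.25 to 0.43 for BDKRB1 and -0.32 to 0.08 for BDKRB2. Of 738 refits of the pathway genes named, 64 lost a call and 16 gained one. Without detection calls, how far dim values lie above background is not known.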
